A study of Homo sapiens with 12 samples.

Results

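Small nucleolar RNA (snoRNA) host genes are described here by RNA sequencing of 786-O, a widely used cell line from a clear cell renal carcinoma without functional VHL. The set holds 10 of the 58381 genes listed: GAS5, ZFAS1, C6orf48, EPB41L4A-AS1, SNHG1, SNHG3, SNHG5, SNHG6, SNHG8 and SNHG12, and all 10 passed the filter on low values. They were taken by name, and 4 of them (GAS5, ZFAS1, C6orf48 and EPB41L4A-AS1) were chosen by measured values: each was lower with every RARRES2 hairpin than with the control hairpin at an unadjusted p under 0.05. Cells carried a lentiviral hairpin (shRARRES2_1, shRARRES2_2 or shRARRES2_3) against RARRES2, which encodes the adipokine chemerin, or a lentiviral hairpin against GFP (shGFP). Each of the 4 groups held 3 libraries. The control cells were thus infected and expressed a hairpin as well, and no uninfected library was analysed here. The labels do not tie replicates to separate cultures, and the tests therefore rest on a spread between libraries that could be technical.

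A snoRNA host gene carries snoRNAs in its introns. The introns are spliced out and trimmed, and the released snoRNAs join proteins to guide chemical modification of ribosomal RNA: box C/D snoRNAs guide ribose methylation and box H/ACA snoRNAs guide pseudouridylation, while a few take part in ribosomal RNA cleavage. The spliced exons of many host genes encode no conserved protein and are removed by nonsense-mediated decay, and several host transcripts begin with a run of pyrimidines (terminal oligopyrimidine, TOP), as those of ribosomal protein genes do.

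The start sequences are shown because a pyrimidine run at the transcript start is a feature that the choice of the genes did not use. Each window runs from 30 bases before to 30 bases from the RefSeq start onward (GRCh38.p14), 5′ to 3′ on the gene's own strand, and capitals mark its longest run of C and T. The windows are chr20:49278612-49278671 (plus strand) for ZFAS1, chr6:31834886-31834945 (plus) for C6orf48, chr6:85678704-85678763 (minus) for SNHG5, chr4:118278732-118278791 (plus) for SNHG8, chr1:28581844-28581903 (minus) for SNHG12 and chr5:112160496-112160555 (plus) for EPB41L4A-AS1.
ZFAS1: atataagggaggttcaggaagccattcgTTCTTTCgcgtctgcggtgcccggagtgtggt
C6orf48: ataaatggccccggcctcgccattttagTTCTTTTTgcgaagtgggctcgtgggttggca
SNHG5: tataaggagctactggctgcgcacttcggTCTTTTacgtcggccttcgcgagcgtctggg
SNHG8: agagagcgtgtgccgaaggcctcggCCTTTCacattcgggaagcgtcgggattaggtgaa
SNHG12: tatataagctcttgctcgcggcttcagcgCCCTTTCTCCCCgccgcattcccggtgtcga
EPB41L4A-AS1: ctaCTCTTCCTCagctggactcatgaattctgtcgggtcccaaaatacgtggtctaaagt

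In ZFAS1, C6orf48, SNHG5, SNHG8 and SNHG12 the run covers the annotated start base, while in EPB41L4A-AS1 it lies well before it. A run of at least 6 letters, each C or T, on the gene's strand and over the start base was sought. It was found in 5 of the 9 RefSeq windows analysed (55.6%), against 7.51% of 27305 RefSeq promoters cut to the same length. No window of SNHG6 was analysed. The RefSeq windows of GAS5, SNHG1 and SNHG3, without such a run over the start base, are not printed. Such a run over the start base was present in 44 of 63 ribosomal protein windows (69.8%). It was also present in 4 of 15 windows of other noncoding host genes (26.7%). Anywhere in the window, such a run occurred in 8 of 9 (88.9%) and in 49.4% of all promoters. A match describes the letters and does not show that the RNA starts there. The RefSeq starts of the 5 genes with such a run over the start base lie downstream of their GENCODE 29 gene starts. The offsets are -464 bases for ZFAS1, -308 for C6orf48, -15 for SNHG5, -53 for SNHG8 and -1259 for SNHG12. GENCODE transcripts of these 5 genes were not searched for a run. The RefSeq start of GAS5 lies 163 bases upstream of the GENCODE 29 gene and has no such run. The commonest first bases among 29 GENCODE transcripts of GAS5, shared by 6 of them, begin with a pyrimidine run. Other GAS5 transcripts were not searched for a run. The bases shared by the 6 lie at chr1:173867960-173867989 (minus strand, GRCh38). They are shown with that run in capitals because GAS5 is a textbook TOP transcript.
GAS5: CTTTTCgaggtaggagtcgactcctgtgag

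Libraries held 12599424 to 23594195 reads on genes, recovered from the deposited TMM-normalized CPM (reads relative to the library total, scaled by edgeR's trimmed mean of M values), the unit written as CPM below. RARRES2 averaged 39.7 CPM with shRARRES2_1, 73.2 CPM with shRARRES2_2 and 44.8 CPM with shRARRES2_3, against 587 CPM with shGFP, and the 9 hairpin libraries lay below the shGFP libraries, as labelled. The 6 renal line markers were detected in every library, and their sum was 742 to 7115 CPM with the RARRES2 hairpins and 1078 to 2250 CPM with shGFP. PAX8 stood at 239 to 594 CPM, whereas KRT8 spanned 131 to 4050 CPM, and CDH6 was at 18.1 CPM in shRARRES2_3 replicate 2 and 15.3 CPM in shGFP replicate 2 but at 82.7 to 319 CPM elsewhere. Summed leukocyte markers reached at most 2.87 CPM and summed endothelial markers at most 3.78 CPM. Keratinocyte markers summed to 472 CPM in shGFP replicate 2 and to 48.04 to 131 CPM elsewhere; KRT5 and KRT14 stood at 169 and 119 CPM in that library, and KRT1 was at 0 in all libraries. Summed fibroblast markers ranged over 14.2 to 83.3 CPM with the RARRES2 hairpins and 4.08 to 77.4 CPM with shGFP. The part of these markers in the results was not tested. shRARRES2_1 replicates 2 and 3 lay unusually close to each other, with a chi-square of their reads of 2.95 per degree of freedom against 64.8 to 378 for other pairs within a group. They differed by more than sampling noise and were kept as separate libraries, with their average as an alternative. For 6 of the 12 libraries the best correlated library was one of a different hairpin.

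Host gene RNA was lower with the RARRES2 hairpins than with shGFP for most of the set. The 10 genes together summed to 617 ± 97.0 CPM with shRARRES2_1, 887 ± 104 CPM with shRARRES2_2 and 838 ± 6.91 CPM with shRARRES2_3, against 1656 ± 385 CPM with shGFP (SD, n = 3 each). The median log2 change over the 10 genes was -1.38, -0.68 and -0.94 with hairpins 1 to 3, where the median over 15236 genes tested was 0.04, 0.07 and 0.00. Changes were computed from log2(CPM + 1), and the 3 comparisons share the same shGFP libraries. Because earlier results of these contrasts chose the genes, their changes against shGFP are descriptions and carry no test. In bulk RNA, fewer cells of a type and less RNA per cell cannot be told apart.

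**Figure D1:**
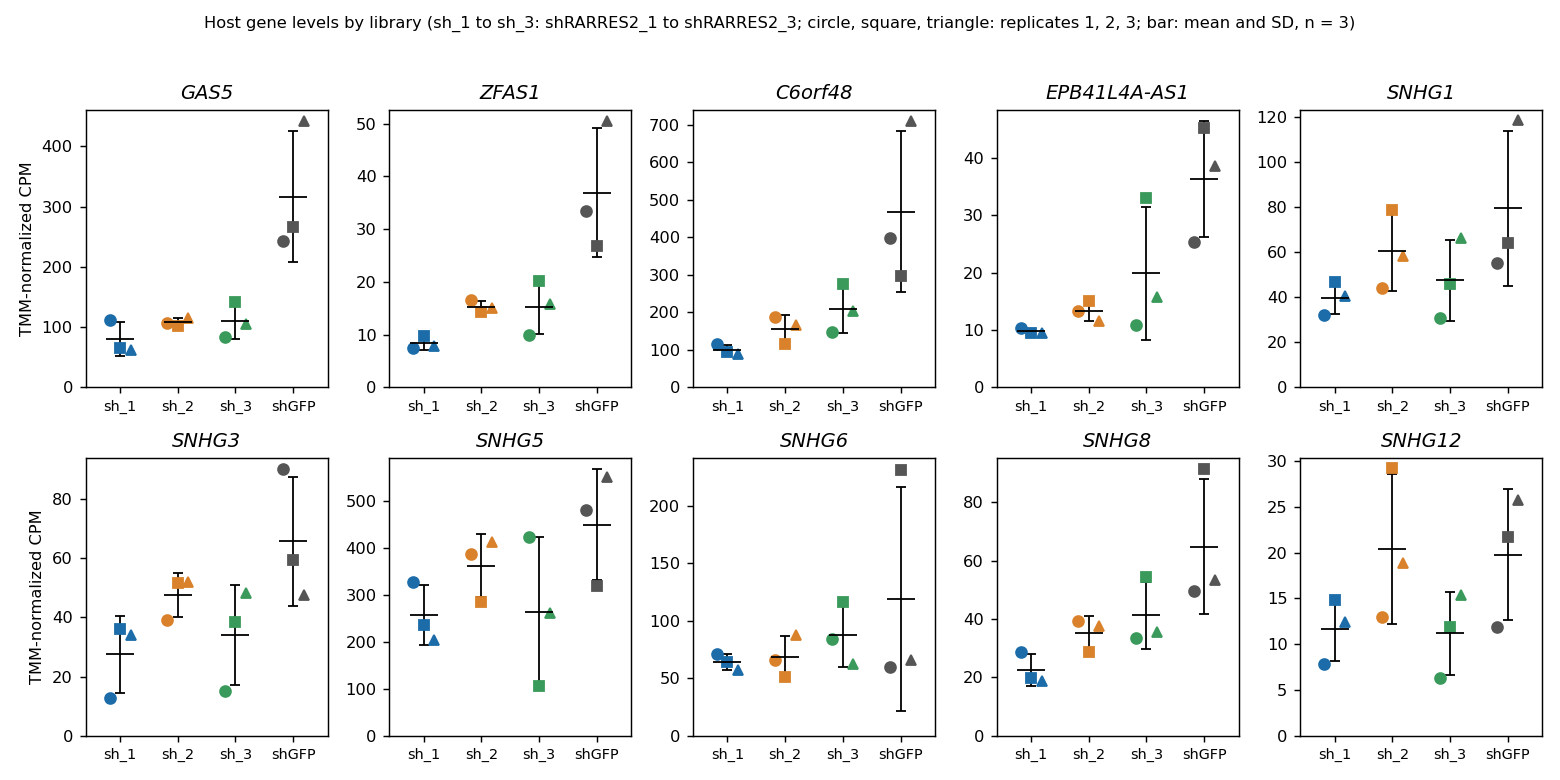
TMM-normalized CPM of the 10 host genes in each library, by hairpin group (x axis), with points for replicates and bars for the mean and SD of 3 libraries. GAS5, ZFAS1 and C6orf48 show 9 hairpin libraries below all 3 shGFP libraries, while SNHG6 reaches 231 CPM in shGFP replicate 2 only.

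The hosts of box C/D snoRNAs are given first. GAS5 (chr1:173863900-173868882, minus strand), whose introns carry a cluster of box C/D snoRNAs and whose spliced RNA accumulates when translation or growth stops, measured 112, 64.9 and 61.7 CPM with shRARRES2_1. It measured 106, 102 and 116 CPM with shRARRES2_2, 83.0, 141 and 106 CPM with shRARRES2_3, and 242, 266 and 441 CPM with shGFP. All 9 hairpin libraries were below all 3 shGFP libraries, and the highest hairpin value was in shRARRES2_3 replicate 2. The means were 25.1%, 34.1% and 34.7% of that with shGFP for hairpins 1 to 3. The log2 changes were -1.98, -1.49 and -1.50, each with an SE of 0.32. With shRARRES2_1 replicates 2 and 3 averaged, the change with that hairpin was -1.85 for GAS5, -2.01 for ZFAS1 and -2.09 for C6orf48.

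ZFAS1 (chr20:49278178-49295738, plus strand) lies antisense to the start of ZNFX1 and hosts SNORD12, SNORD12B and SNORD12C. It measured 7.49, 9.74 and 7.83 CPM with shRARRES2_1, 16.5, 14.3 and 15.004 CPM with shRARRES2_2, 9.91, 20.2 and 15.7 CPM with shRARRES2_3, and 33.5, 26.8 and 50.5 CPM with shGFP. The groups did not overlap with shGFP, and the shRARRES2_1 libraries were the lowest 3 of the 12. The log2 changes were -1.98, -1.17 and -1.23 (SE 0.32 each), or 22.6%, 41.4% and 41.3% of the shGFP mean. Its annotated exons share 249 bases with ZNFX1 on the opposite strand. The strand setting of the counting is not known here, so ZFAS1 reads may include some from ZNFX1, which averaged 160, 206 and 113 CPM with hairpins 1 to 3, against 92.1 CPM with shGFP.

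C6orf48 (chr6:31834608-31839766, plus strand), now named SNHG32, lies in the major histocompatibility complex region and hosts SNORD48 and SNORD52. It measured 115, 93.1 and 88.3 CPM with shRARRES2_1, 188, 116 and 165 CPM with shRARRES2_2, 146, 275 and 205 CPM with shRARRES2_3, and 399, 296 and 709 CPM with shGFP. No hairpin library reached the lowest shGFP library, although shRARRES2_3 replicate 2 came near shGFP replicate 2. The log2 changes were -2.15, -1.51 and -1.11 (SE 0.35 each). The shGFP libraries spread widely for this gene, with an SD of 215 around a mean of 468 CPM.

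SNHG1, host of SNORD22 and SNORD25 to SNORD31, and SNHG5, host of the SNORD50 pair, were lower by less. SNHG1 measured 32.3, 46.7 and 40.4 CPM with shRARRES2_1, 44.2, 78.9 and 58.2 CPM with shRARRES2_2, 30.7, 45.7 and 66.3 CPM with shRARRES2_3, and 55.3, 64.3 and 119 CPM with shGFP. Its shRARRES2_1 libraries all lay below shGFP, and the other hairpins overlapped with it (log2 changes -0.91, -0.35 and -0.72, SE 0.36 each). Without shGFP replicate 3 these changes were -0.59, -0.02 and -0.39. With shRARRES2_2 the change was -0.56 without its replicate 2 or without shGFP replicate 1 and -0.15 without its replicate 1, and with shRARRES2_3 it was -0.44 without its replicate 1. SNHG5, with the highest mean CPM of the set over the 12 libraries, measured 327, 236 and 204 CPM with shRARRES2_1, 387, 285 and 413 CPM with shRARRES2_2, 423, 106 and 261 CPM with shRARRES2_3, and 479, 319 and 549.6 CPM with shGFP. Every hairpin group overlapped with shGFP here, and the lowest library was shRARRES2_3 replicate 2. The SNHG5 log2 changes were -0.80, -0.29 and -0.95 (SE 0.44 each), and that with shRARRES2_3 was -0.40 without that library. The change with shRARRES2_2 was -0.13 without its replicate 2 or without shGFP replicate 3 and -0.52 without shGFP replicate 2.

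SNHG6, host of SNORD87, measured 70.8, 64.2 and 57.0 CPM with shRARRES2_1, 65.5, 51.2 and 88.1 CPM with shRARRES2_2, 84.0, 117 and 62.0 CPM with shRARRES2_3, and 59.5, 231 and 65.9 CPM with shGFP. A single library, shGFP replicate 2, stood above all others, and it is the library with the raised keratinocyte markers. The log2 changes were -0.60, -0.54 and -0.19 (SE 0.45 each) with that library and 0.02, 0.09 and 0.43 without it, so SNHG6 gives no direction.

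The hosts of box H/ACA snoRNAs follow. EPB41L4A-AS1 (chr5:112160526-112164276, plus strand), host of SNORA13, measured 10.3, 9.40 and 9.50 CPM with shRARRES2_1, 13.4, 15.04 and 11.5 CPM with shRARRES2_2, 10.9, 33.0 and 15.7 CPM with shRARRES2_3, and 25.3, 45.3 and 38.5 CPM with shGFP. The first 2 hairpins did not overlap with shGFP, but shRARRES2_3 replicate 2 lay above shGFP replicate 1. The log2 changes were -1.76, -1.35 and -0.94 (SE 0.37 each), and that with shRARRES2_3 was -1.37 without its replicate 2 and -0.61 without its replicate 1. Of its 3344 exon bases, 1659 are shared with the antisense gene EPB41L4A, which averaged 17.9, 14.5 and 10.1 CPM with hairpins 1 to 3 and 12.7 CPM with shGFP.

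SNHG8 (chr4:118278709-118279823, plus strand), host of SNORA24, measured 28.7, 19.8 and 18.7 CPM with shRARRES2_1, 39.5, 28.8 and 37.6 CPM with shRARRES2_2, 33.5, 54.5 and 35.6 CPM with shRARRES2_3, and 49.6, 91.5 and 53.2 CPM with shGFP. Its highest value was again in shGFP replicate 2. Only shRARRES2_3 overlapped with shGFP, through its replicate 2. The log2 changes were -1.46, -0.82 and -0.62 (SE 0.31 each), and -1.19, -0.54 and -0.35 without shGFP replicate 2.

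SNHG3, host of the SNORA73 pair that takes part in ribosomal RNA cleavage, measured 12.6, 36.1 and 33.9 CPM with shRARRES2_1, 39.1, 51.7 and 52.0 CPM with shRARRES2_2, 15.2, 38.6 and 48.1 CPM with shRARRES2_3, and 90.0, 59.6 and 47.5 CPM with shGFP. The lowest values were in replicate 1 of shRARRES2_1 and of shRARRES2_3, and shRARRES2_1 alone did not overlap with shGFP. Its log2 changes were -1.31, -0.42 and -1.03 (SE 0.46 each), and 242 of its exon bases are shared with RCC1 on the same strand. Without their replicate 1, the changes were -0.84 with shRARRES2_1 and -0.55 with shRARRES2_3, and without shGFP replicate 1 that with shRARRES2_2 was -0.17. SNHG12, which hosts both classes (SNORD99 with SNORA16A, SNORA44 and SNORA61), measured 7.81, 14.8 and 12.5 CPM with shRARRES2_1, 13.0, 29.2 and 18.8 CPM with shRARRES2_2, 6.32, 11.9 and 15.3 CPM with shRARRES2_3, and 11.9, 21.7 and 25.7 CPM with shGFP. It overlapped with shGFP for every hairpin and had the only positive change of the set (log2 changes -0.69, 0.03 and -0.78, SE 0.42 each); that change was -0.07 when the columns were rescaled to equal totals and -0.28 to 0.30 with single libraries left out. Without their replicate 1, SNHG12 changes were -0.44 with shRARRES2_1 and -0.45 with shRARRES2_3.

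The libraries lowest in SNHG3 and SNHG12, replicate 1 of shRARRES2_1 and of shRARRES2_3, stood apart in other genes as well. The ribosomal protein gene RPL8 was at 6371 and 6625 CPM in them and at 1295 to 3703 CPM in the other 10 libraries, and the keratin gene KRT8 at 3531 and 4050 CPM. Their part in the SNHG3 and SNHG12 values was not tested.

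**Figure D2:**
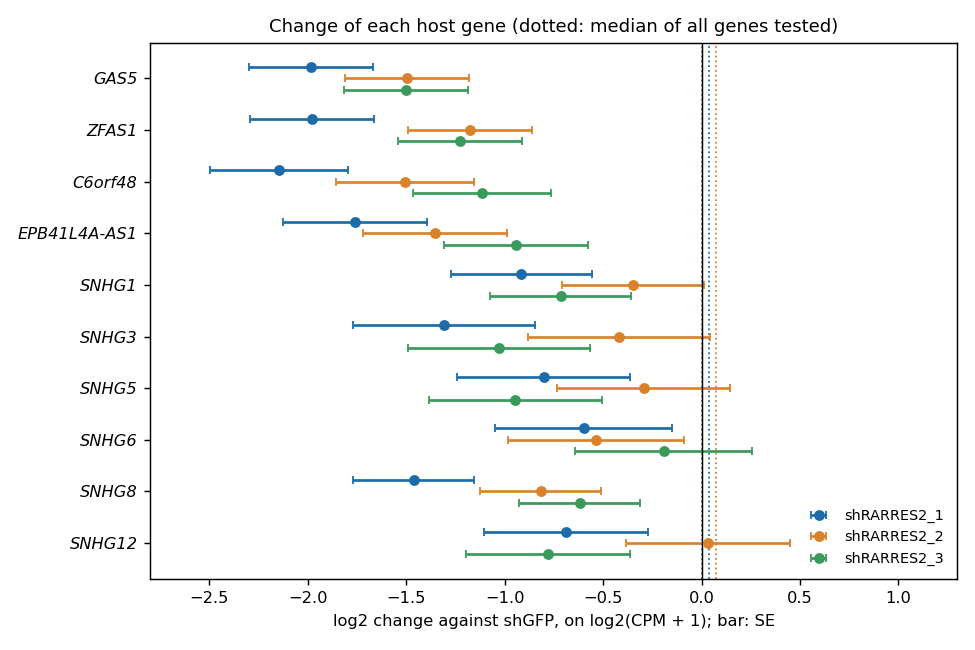
Log2 change of each host gene with each RARRES2 hairpin against shGFP on the log2(CPM + 1) scale, with bars for 1 SE and dotted lines for the median of all genes tested. GAS5, ZFAS1, C6orf48 and EPB41L4A-AS1 span -2.15 to -0.94, and SNHG12 with shRARRES2_2 lies at 0.03.

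Counted over the set, every library was below every shGFP library for 7 genes with shRARRES2_1, 5 with shRARRES2_2 and 3 with shRARRES2_3. The same held for 15%, 11.7% and 3.63% of all genes tested. GAS5, ZFAS1 and C6orf48 met it with all hairpins, as did 0.729% of all genes. By limma with Benjamini-Hochberg adjustment over all genes, 3 of the 10 were called lower with shRARRES2_1 (GAS5, ZFAS1 and C6orf48; 0.0722% of all genes were called lower) and none with shRARRES2_2 (0.0394%) or shRARRES2_3 (0.00656%). At an unadjusted p under 0.05, 7, 5 and 5 genes were lower, where 7.86%, 5.48% and 2% of all genes were. edgeR called none with any hairpin (0.0197%, 0.0263% and 0.00656% of all genes), and DESeq2 called 5, 4 and 1 (3.27%, 2.33% and 0.105%). These counts come from the contrasts that chose the genes, so nothing is read from them. The 3 calls with shRARRES2_1 became 1 (ZFAS1) with the replicate number as a block, 0 when its replicates 2 and 3 were averaged, 0 when any of 8 single libraries was left out, 1 without shRARRES2_1 replicate 1 or shGFP replicate 2, 4 without shRARRES2_3 replicate 1, and 5 without shRARRES2_3 replicate 2. Over all genes, 58 (0.381%) were lower with each hairpin at an unadjusted p under 0.05. Just inside that rule stood EPB41L4A-AS1, with a largest value of 0.0237 over the hairpins, and just outside it SNHG8, with 0.0667.

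The hairpins were then compared with each other, a contrast that did not itself choose the genes. The choice of GAS5, ZFAS1, C6orf48 and EPB41L4A-AS1 used the same hairpin libraries, though, and asked for lower values with each hairpin. For these 4 the comparison is therefore not independent of the choice. Levels of ZFAS1, C6orf48 and SNHG8 were lowest with shRARRES2_1, but no host gene passed. By limma's moderated F-test with Benjamini-Hochberg adjustment, 0 of 10 differed between the hairpins (0.249% of all genes did), and edgeR and DESeq2 also gave 0 (0.131% and 3.88% of all genes). At an unadjusted limma p under 0.05 there were 3: C6orf48 (adjusted p = 0.406), SNHG8 (adjusted p = 0.432) and ZFAS1 (adjusted p = 0.432). That is a share of 3 in 10, where 11% of all genes reached it.

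Between pairs of hairpins, log2 differences came with wide intervals. C6orf48 differed by -1.03 between shRARRES2_1 and shRARRES2_3 (95% confidence interval -1.79 to -0.27; limma adjusted p = 0.303). ZFAS1 differed by -0.81 between shRARRES2_1 and shRARRES2_2 (-1.49 to -0.12; limma adjusted p = 0.424). For SNHG8 the difference between shRARRES2_1 and shRARRES2_3 was -0.84 (-1.51 to -0.17; limma adjusted p = 0.351). GAS5 differed by 0.00 between shRARRES2_2 and shRARRES2_3, with an interval of -0.68 to 0.69, so that differences up to those bounds are not excluded. Of 30 such differences, 0 passed limma's adjusted threshold, where 0.144%, 0.197% and 0.0919% of all genes did for shRARRES2_1 against shRARRES2_2, shRARRES2_1 against shRARRES2_3 and shRARRES2_2 against shRARRES2_3. At an unadjusted p under 0.05 there were 1 (ZFAS1), 4 (ZFAS1, C6orf48, EPB41L4A-AS1 and SNHG8) and 0, where 9.59%, 10.4% and 8.45% of all genes reached it. RARRES2 was highest among the hairpins with shRARRES2_2, and GAS5 averaged 79.5 CPM with shRARRES2_1, 108 CPM with shRARRES2_2 and 110 CPM with shRARRES2_3.

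Levels between the genes were compared per kilobase of annotated exon, which includes retained introns and so is approximate. With shGFP the order was C6orf48 (260 ± 119 CPM per kilobase), SNHG5 (160 ± 42.2), SNHG6 (95.4 ± 78.1), GAS5 (87.2 ± 29.95), SNHG8 (70.2 ± 25.1), SNHG1 (21.2 ± 9.17), ZFAS1 (16.5 ± 5.44), SNHG3 (16.1 ± 5.36), EPB41L4A-AS1 (10.9 ± 3.03) and SNHG12 (4.64 ± 1.67; SD, n = 3). Neighbours in this order overlapped in range, except SNHG8 with SNHG1 and EPB41L4A-AS1 with SNHG12. With shRARRES2_1 and shRARRES2_2, SNHG5 led instead, at 91.1 ± 22.8 and 129 ± 24.0 CPM per kilobase against 54.8 ± 7.90 and 86.9 ± 20.5 for C6orf48. GAS5 ranked below SNHG8 with each RARRES2 hairpin and above it with shGFP, but the ranges of these genes overlapped in every group. GAS5 and C6orf48 were chosen as lower with every hairpin, which bears on these changes of order.

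**Figure D3:**
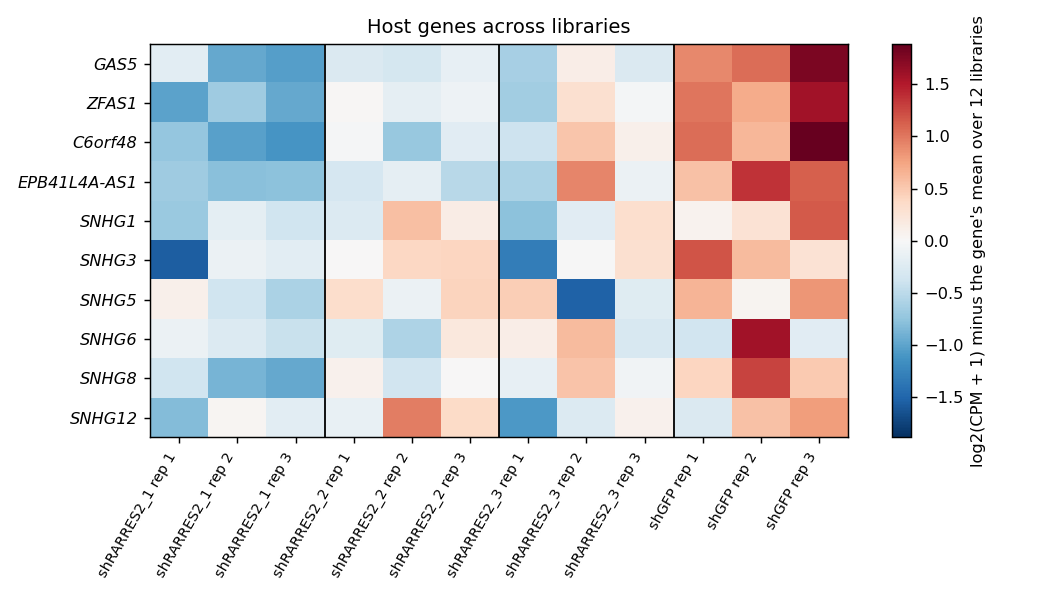
Log2(CPM + 1) of each host gene minus its mean over the 12 libraries, with libraries in columns ordered by hairpin group and shGFP at the right. GAS5, ZFAS1, C6orf48 and EPB41L4A-AS1 share a pattern across libraries, while SNHG5 and SNHG6 follow others.

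Across the 12 libraries the 4 genes lower with each hairpin were correlated, with Pearson r of log2(CPM + 1) of 0.863 to 0.957 over their 6 pairs. All 4 had been chosen as lower with the hairpins, which bears on these values. Over all 45 pairs r spanned -0.171 (SNHG5 with SNHG6) to 0.957 (ZFAS1 with C6orf48), and SNHG1 and SNHG12 reached 0.897. The genes most like each of the 4 among 15226 others were RARRES2 itself, SKOR1 and RP11-307C18.1 for GAS5 (r 0.882, 0.872 and 0.855), and EBF4, IP6K3 and SCARF2 for ZFAS1 (0.904, 0.892 and 0.887). For C6orf48 they were IP6K3, TP53I11 and EBF4 (0.951, 0.929 and 0.894), and for EPB41L4A-AS1 they were PLIN1, AC017104.6 and FN3K (0.959, 0.959 and 0.946). Several of these average about 1 CPM. SNHG8 was most like the ribosomal protein genes RPL23 and RPL37 (0.962 and 0.947) with CCNB1IP1 (0.957); RPL23 was at 302 to 727 CPM in the RARRES2 hairpin libraries and at 629, 1021 and 562 CPM with shGFP, highest in replicate 2 as SNHG8 was. These are the highest of many values over libraries that share groups and scaling, and are given as description.

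Few reads fell on the snoRNA entries that could be matched. By coordinates, 23 annotated entries, SNORA16A with 2 of them, lay within the 9 hosts other than GAS5, and 18 of them had 0 reads in all 12 libraries. The snoRNAs of GAS5, and SNORD29, SNORD31 and SNORD50A, were not analysed here. The highest was SNORA73B, in SNHG3, with at most 64 reads (4.75 CPM). SNORD99, SNORD12B, SNORD12C and SNORA13 had at most 35, 15, 7 and 9 reads. The preparation was described only as standard Illumina libraries, and 3 reads, the limit that a count of 0 allows, correspond to 0.131 to 0.223 CPM across libraries, for counting error only.

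Other noncoding host genes were tested as well, from a list made with earlier results of these data known. The list leaves out the 10 host genes, some of which were chosen as lower with every hairpin. How few of the list were called therefore depends in part on that choice. Of 20 listed, 19 were in the table and 14 passed the filter. None was called with any hairpin by limma (0.171%, 0.0459% and 0.00656% of all genes were, in either direction) or edgeR. DESeq2 called SNHG16 and SNHG29 lower with shRARRES2_1 and none with the others. In either direction, DESeq2 called 3.27%, 2.33% and 0.105% of all genes with hairpins 1 to 3. In limma at an unadjusted p under 0.05, SNHG14, SNHG16 and SNHG29 were lower with shRARRES2_1, SNHG29 was lower and SNHG4 and DANCR were higher with shRARRES2_2, and SNHG26 was lower with shRARRES2_3. Of all genes, 7.86%, 5.48% and 2% were lower and 8.8%, 8.2% and 1.32% were higher at that threshold with hairpins 1 to 3. The median log2 changes were -0.29, 0.06 and -0.12, nearer those of all genes than the medians of the 10 host genes. GAS5, ZFAS1, C6orf48 and EPB41L4A-AS1 were chosen as lower in these same contrasts, which by itself widens that gap. No difference between the 10 and the other host genes is therefore read from it. SNHG29, a noncoding host that is the most abundant of this list, measured 120, 52.3 and 49.9 CPM with shRARRES2_1, 108, 71.5 and 93.4 CPM with shRARRES2_2, 168, 141 and 132 CPM with shRARRES2_3, and 166, 179 and 161 CPM with shGFP. Libraries with the first 2 hairpins lay below all shGFP libraries, and its limma log2 changes were -1.30, -0.90 and -0.20 (SE 0.32 each; adjusted p = 0.129, 0.290 and 0.900). SNHG16 averaged 21.97 ± 1.54 CPM with shRARRES2_1, 54.1 ± 11.6 CPM with shRARRES2_2 and 49.1 ± 8.89 CPM with shRARRES2_3, against 44.6 ± 13.9 CPM with shGFP (SD, n = 3 each). Between hairpins it had an adjusted p of 0.138 in limma's F-test, and DESeq2 called it (adjusted p = 0.00497), as 3.88% of all genes. Of the 14 tested, 4 had an unadjusted p under 0.05 in limma's F-test, where 11% of all genes did. SNHG7 averaged 45.1, 58.4 and 47.1 CPM with hairpins 1 to 3 and 55.6 CPM with shGFP.

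**Figure D4:**
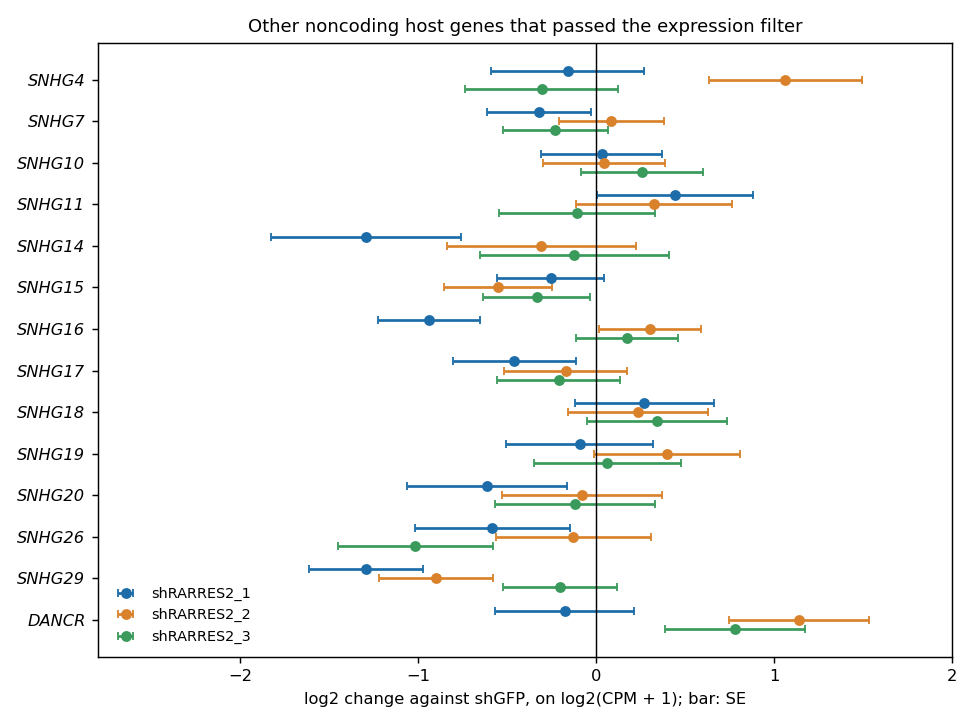
Log2 change of the 14 other noncoding host genes tested, with each RARRES2 hairpin against shGFP on the log2(CPM + 1) scale and bars for 1 SE. SNHG29 and SNHG14 reach -1.30 and -1.29 with shRARRES2_1, and DANCR and SNHG4 reach 1.14 and 1.06 with shRARRES2_2.

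Protein-coding genes that carry snoRNAs were compared in the same way. Of 36 tested, 0 passed limma, edgeR or DESeq2 with any hairpin against shGFP. At an unadjusted limma p under 0.05, 5 were lower with shRARRES2_1, 1 was higher with shRARRES2_2 and 0 differed with shRARRES2_3. Of all genes, 7.86% were lower with shRARRES2_1, 8.2% were higher with shRARRES2_2 and 3.32% differed in either direction with shRARRES2_3. Between hairpins, limma's F-test and edgeR called 0 (0.249% and 0.131% of all genes). In limma 1 of the 36 had an unadjusted p under 0.05, where 11% of all genes did. DESeq2 called 1, TOMM20, which encodes a mitochondrial import receptor (adjusted p = 0.024), where it called 3.88% of all genes. Their median log2 changes were -0.11, 0.05 and 0.20. Among them EIF4A2, which encodes a translation initiation helicase, averaged 143, 217 and 206 CPM with hairpins 1 to 3 and 341 CPM with shGFP (log2 changes -1.37, -0.68 and -0.88; limma adjusted p = 0.222, 0.499 and 0.876); it is named here for its values. The 3 most abundant were EEF2, HSPA8 and RACK1, with log2 changes from -0.26 to 0.81.

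Genes that share the TOP start, and genes for the factors of the decay route, were not called by limma or edgeR. Of 79 cytosolic ribosomal protein genes, 10, 1 and 1 were lower at an unadjusted limma p under 0.05 with hairpins 1 to 3, and none was higher. Of all genes, 7.86%, 5.48% and 2% were lower at that threshold, so the share with shRARRES2_1 lies above that of all genes. Log2 changes lay below 0 for 68, 57 and 23 of the 79, and for 7279, 6826 and 7569 of all 15236 genes. DESeq2 called 2 (RPL17 and RPL37, lower), 0 and 0, where it called 3.27%, 2.33% and 0.105% of all genes. The median log2 changes were -0.44, -0.18 and 0.10. RPL8, RPS2 and RPLP0, the most abundant, ranged from -0.28 to 0.55 (SE 0.58 to 0.64). Summed, the 79 genes reached 99384, 30817 and 28043 CPM with shRARRES2_1 and 102558, 57782 and 43501 CPM with shRARRES2_3. With shGFP the sums were 50689, 82952 and 42398.5 CPM. The changes with shRARRES2_1 thus average a library above all shGFP libraries with others below them. Of 15 TOP translation factor genes tested of 16, 2, 0 and 1 were lower at an unadjusted limma p under 0.05, and none was higher. DESeq2 called 1, 0 and 1 (NAP1L1, lower), beside the same shares of all genes. Between hairpins DESeq2 also called NAP1L1 (adjusted p = 0.000101), where it called 3.88% of all genes. The medians of these 15 genes were -0.32, -0.09 and 0.01. Log2 changes were -0.61, -0.29 and 0.22 for EEF1A1 and -0.55, -0.42 and -0.11 for PABPC1. Of 15 nonsense-mediated decay factors (medians -0.04, 0.08 and 0.14), 0, 1 and 1 were higher at an unadjusted limma p under 0.05. None of them was lower. Of all genes, 8.8%, 8.2% and 1.32% were higher at that threshold. UPF1, the core helicase, was at 0.15, 0.14 and 0.49, SMG1 at -0.40, -0.25 and -0.28 and SMG5 at 0.67, 0.28 and 0.37. The snoRNP proteins and assembly factors (17 genes, medians 0.18, 0.22 and 0.36) had none at that threshold in either direction. NOP56, a box C/D core protein, had log2 changes of 0.08, 0.36 and 0.68, NOLC1 of -0.27, 0.04 and 0.30 and RUVBL2 of 1.17, 0.62 and 0.90. DESeq2 called none of the decay or snoRNP genes.

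Genes next to the hosts were tested too. Of 14 neighbours, 12 were tested, and limma, edgeR and DESeq2 called 0; ZNFX1 with shRARRES2_2 alone had an unadjusted p under 0.05 (0.0373). The median log2 changes were 0.22, 0.06 and -0.06. ZBTB37, which overlaps the GAS5 locus on the opposite strand without shared exon bases, averaged 22.9, 28.8 and 32.8 CPM with hairpins 1 to 3 and 42.9 CPM with shGFP (log2 changes -1.10, -0.59 and -0.71, SE 0.60 each). NEU1, next to C6orf48, had log2 changes of 0.96, 0.52 and 0.22, EPB41L4A of 0.56, 0.27 and -0.21, and ZNFX1 of 0.99, 1.31 and 0.33. HSPA1B, also next to C6orf48, measured 135, 117 and 111 CPM with shRARRES2_1 and 104, 82.9 and 85.0 CPM with shRARRES2_2. It measured 87.5, 162 and 57.3 CPM with shRARRES2_3 and 95.7, 225 and 106 CPM with shGFP, so every hairpin group overlapped with shGFP. HSPA1B, SLC3A2, RCC1, SYNCRIP, SNX14, PRSS12, TRNAU1AP and TAF12 had log2 changes of -0.54 to 0.62 over the 3 hairpins, and GAS5-AS1 and TCF24 did not pass the filter.

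**Figure D5:**
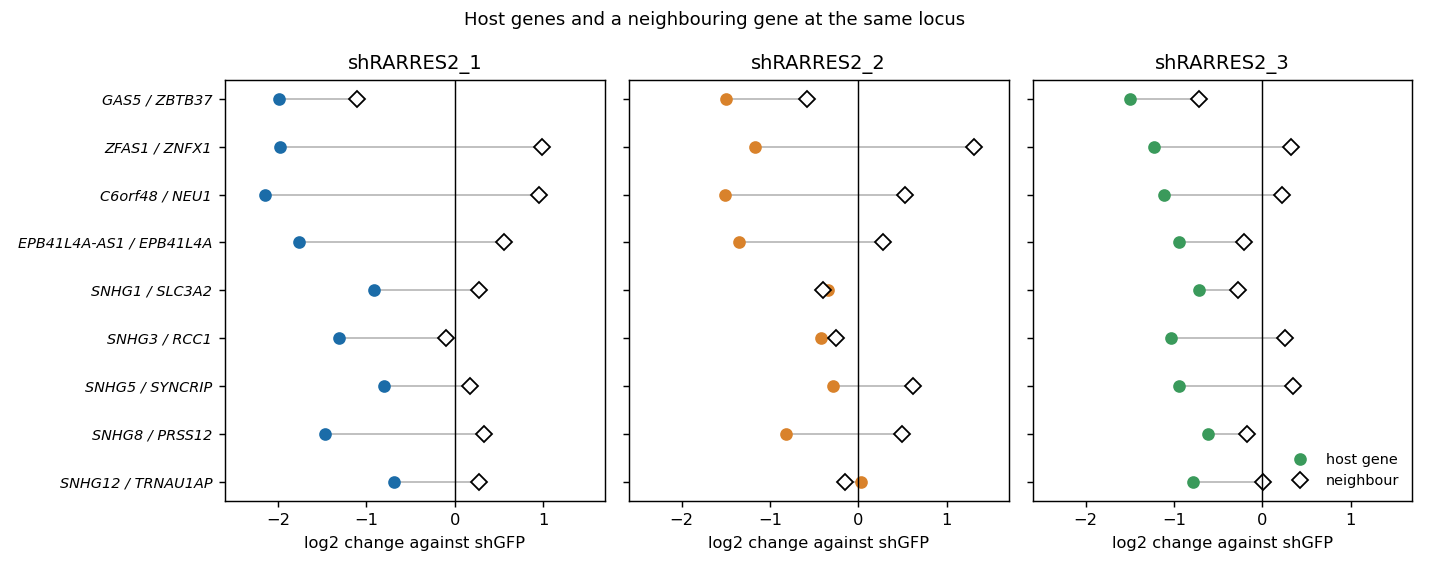
Log2 change against shGFP of 9 host genes (filled circles) and a neighbouring gene at each locus (open diamonds), in a panel for each hairpin. ZFAS1 and C6orf48 lie at -2.15 to -1.11 while ZNFX1 and NEU1 lie at 0.22 to 1.31, and ZBTB37 lies on the same side as GAS5. HSPA1B, the other neighbour of C6orf48, is not drawn.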

How the data were processed

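RNA of 12 libraries of 786-O cells was measured. The tools named in the submitters' processing notes are STAR 2.5.2, Trim Galore 0.6.1, edgeR and CASAVA, with hg38 (GRCh38); the counting annotation and strand setting are not given in the sources used here. The authors deposited TMM-normalized CPM, treated as a signal scaled for depth. Plain CPM had been assumed, but library scaling factors were present; the test was kept. Whole reads were recovered for 100% of values (tolerance 1e-06).

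A gene was kept when 3 or more libraries reached 1 CPM. On log2(CPM + 1) of all libraries, group means were fitted with limma 3.58.1 (R 4.3.3) and a mean-variance trend. Benjamini-Hochberg adjustment, at 0.05, covered all 15236 genes. This step was tested on simulated data. edgeR 4.0.16 and DESeq2 1.42.0 on recovered reads, other pseudocounts, filters and scaling, a replicate block, averaging of 2 near-identical libraries and leaving out each library were alternatives. Coordinates and exon lengths are from GENCODE 29 (GRCh38), and start windows from RefSeq.

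The named genes were all 10 host genes, RARRES2, the neighbours, the 3 most abundant genes of each list and any that limma called there, and the 3 genes most like GAS5, ZFAS1, C6orf48 and EPB41L4A-AS1; others were named after their values were seen. Same-numbered libraries deviated together in all 3 pairs of shRARRES2_3 with shGFP (r 0.272 to 0.604) and of shRARRES2_1 with shRARRES2_3 (0.413 to 0.754), but not in all pairs of the other groups; the pairing comes from these values, not from the labels. The members and lists were chosen with earlier results of these data known.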

Additional observations from a re-analysis of the deposited data

How the results depend on the processing

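Over 22 alternatives, 12 of which left out 1 library, 651 of 660 log2 changes of the 10 host genes kept their sign, and for the 8 genes other than SNHG6 and SNHG12 all 528 were below 0. The 3 SNHG6 values without shGFP replicate 2 moved by more than the spread between replicates. The count of host genes called with shRARRES2_1, 3 in limma, was 0 without a filter on low values, 0 with columns rescaled to equal totals, 0 in edgeR, 0 with shRARRES2_1 replicates 2 and 3 averaged, 5 in DESeq2 and 0 to 5 with 1 library left out. DESeq2 raised the counts with shRARRES2_2 and shRARRES2_3 to 4 and 1 from 0, and that of other noncoding host genes with shRARRES2_1 to 2 from 0. With 1 library left out, these counts were 0 to 1 for shRARRES2_2 (1 without shRARRES2_3 replicate 2), 0 for shRARRES2_3 and 0 to 1 for the other hosts with shRARRES2_1 (1 without shRARRES2_1 replicate 1). The F-test between hairpins called 0 host genes throughout. Rescaling moved the median log2 change of all genes with shRARRES2_2 to -0.03, against 0.07. The causes were not tested. Over all groups, 11 of 18 same-numbered pairs had r above 0.1 (-0.193 to 0.754), and 8 of 12 libraries correlated best with their own number. With a replicate block, 1 host gene was called with shRARRES2_1, and it changed no other call of the host genes, the hairpin differences included. Each host gene had at least 109 reads in every library.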
